A study of Homo sapiens with 22 samples.

Results

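The human alpha-globin cluster lies near the end of the short arm of chromosome 16 and holds HBZ, HBM, HBA2, HBA1 and HBQ1 in that order, with its remote enhancers inside and beside the neighbouring gene NPRL3. Every region of 4 deposited region tables, 1 each for H3K27ac, Jun, CTCF and Rad21, that lay within chr16:50000-250000 of GRCh38 was taken. This gave 26 of 95436 H3K27ac regions, 26 of 138731 Jun regions, 14 of 66168 CTCF regions and 20 of 109111 Rad21 regions. No region crossed an edge of the interval. The cells were wild-type K562, an established human myeloid leukemia line with erythroid and megakaryocytic features, at 0, 6 and 72 h of exposure to 25 nM PMA. PMA is a phorbol ester that activates protein kinase C and drives K562 away from the erythroid and toward a megakaryocyte-like state. The titles call the assay CNR, taken to stand for CUT&RUN, a method that cuts and releases the DNA around an antibody-bound target, and the labels state that the cells were fixed with formaldehyde. H3K27ac, Jun and CTCF were profiled at all 3 times and Rad21 at 0 and 72 h only, with 2 libraries in each of 11 groups and 22 in all. All groups came from 1 cell line and no untreated group at 6 or 72 h was analysed here, so time in culture and time in PMA cannot be told apart.

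HBZ encodes the embryonic zeta chain of hemoglobin, HBA2 and HBA1 the nearly identical alpha chains of fetal and adult hemoglobin, HBM the mu chain and HBQ1 the theta chain. NPRL3, a subunit of the GATOR1 complex that restrains mTORC1 signalling, is transcribed away from the cluster and hosts the enhancers R1, R2 and R3 in its introns, while R4 lies between NPRL3 and HBZ. R2, also called HS-40, is the strongest of them in erythroid cells; it carries sites for GATA factors and for NF-E2, whose recognition sequence contains the one bound by AP-1 dimers such as Jun with Fos. H3K27ac marks active promoters and enhancers, CTCF binds insulator elements, and Rad21 is a subunit of the cohesin ring that extrudes and holds chromatin loops.

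RefSeq promoter sequence (GRCh38.p14) was matched for 2 of the 6 member genes, NPRL3 and HBM. The 250 bases before the start of each are shown, because the first lies inside an H3K27ac and a Jun region described below and the second under no region at all. The same window of RHBDF1, the gene on the far side of MPG from NPRL3, is shown because it lies in a Jun region that fell. The windows are chr16:138674-138923 on the minus strand for NPRL3, chr16:165728-165977 on the plus strand for HBM and chr16:72632-72881 on the minus strand for RHBDF1. Capitals mark matches on either strand to any of 5 searched motifs: AGATAA, the letters of the GATA family, TGANTCA for AP-1, the longer NF-E2 motif that holds the AP-1 letters, CCNCNCCC for KLF factors and the core of the CTCF motif.
NPRL3: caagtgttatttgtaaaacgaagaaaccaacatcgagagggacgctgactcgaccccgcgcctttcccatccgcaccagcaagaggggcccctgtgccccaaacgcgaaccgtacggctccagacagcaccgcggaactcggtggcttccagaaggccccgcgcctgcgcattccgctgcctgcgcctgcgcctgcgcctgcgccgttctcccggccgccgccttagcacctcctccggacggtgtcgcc
HBM: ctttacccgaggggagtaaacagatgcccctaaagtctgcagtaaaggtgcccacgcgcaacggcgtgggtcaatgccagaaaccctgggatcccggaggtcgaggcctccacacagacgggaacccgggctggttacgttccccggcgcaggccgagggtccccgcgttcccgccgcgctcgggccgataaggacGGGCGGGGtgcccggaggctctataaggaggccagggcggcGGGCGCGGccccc
RHBDF1: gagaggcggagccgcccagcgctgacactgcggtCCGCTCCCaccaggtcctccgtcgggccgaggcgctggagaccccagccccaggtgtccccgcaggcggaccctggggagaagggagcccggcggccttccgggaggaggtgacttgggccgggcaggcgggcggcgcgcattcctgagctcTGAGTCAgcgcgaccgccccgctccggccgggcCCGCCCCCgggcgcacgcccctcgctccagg
None of the 5 motifs was found in the NPRL3 window. The HBM window held 2 matches to the KLF letters, which 53.4% of 35116 RefSeq windows of this length also hold. The RHBDF1 window held 1 match to the AP-1 letters, found in 6.57% of windows, and 2 to the KLF letters. The shares for the other motifs were 9.17% for AGATAA, 0.336% for NF-E2 and 8.9% for the CTCF core.

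Counts summed over the regions of a library ranged from 12634261 to 27266241 for H3K27ac, 4766421 to 18883962 for Jun, 2553677 to 6068421 for CTCF and 4398797 to 7285286 for Rad21. Regions on the mitochondrial chromosome took 0.286 to 1.47% of H3K27ac counts but 24 and 27.7% of Jun counts at 0 h against 9.07 and 8.58% at 72 h, so values below are CPM, counts relative to a library total scaled by TMM, and the other scalings are given where they matter. Under TMM the median log2 fold change of all tested regions was 0.20 for H3K27ac at 6 h, then 0.18 at 72 h, against 0 h, and 0.06 and 0.17 for Jun. All 4 K562 markers had an H3K27ac region over the gene or within 1000 bp of it. Their summed CPM was 363 at 0 h, 226 at 6 h and 284 at 72 h. Of the markers of other cells, 4 of 5 megakaryocyte genes had a region (summed CPM 131, 85.7 and 161), 3 of 3 T cell genes (95.1, 39.3 and 42), 2 of 3 B cell genes (21.3, 20.1 and 9.84) and 2 of 3 monocyte genes (42, 39.6 and 84.4). Single genes carried the shifts of the T cell, monocyte and megakaryocyte sums. CD2 went from 75.4 at 0 h to 13.8 at 72 h while CD3E and CD3D were higher at 72 h. CSF1R went from 0.989 to 70.5 while LYZ went from 41 to 13.9. ITGB3 went from 54.8 to 108 while ITGA2B went from 70.8 to 47.1 and GP9 from 4.24 to 2.85. GP1BA was low at both times (0.924 and 2.58). PF4, MS4A1 and CD14 had no region, and the part of these shifts in the results was not tested. The labels number the 2 libraries of a group but do not say that they came from separate cultures, so p-values measure the spread between these libraries, which may be technical. In bulk chromatin, fewer cells carrying a mark and less of it per cell cannot be told apart.

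H3K27ac fell across the whole stretch from NPRL3 to HBQ1 within 6 h of PMA and was lower still at most regions by 72 h. At 6 h against 0 h, 22 of the 26 regions were called lower and 1 higher by edgeR's quasi-likelihood test with a Benjamini-Hochberg adjusted p under 0.05. Of all H3K27ac regions tested, 58.6% were called in this comparison, 26.3% lower and 32.3% higher. At 72 h against 0 h, 23 regions were called lower and 2 higher, where 81.5% of all regions were called, 38.1% lower and 43.4% higher. The median log2 fold change of the 26 regions was -1.82 at 6 h and -2.19 at 72 h. Both comparisons share the 0 h libraries. In the stretch from the NPRL3 span to HBQ1, which holds 20 regions, 19 were called lower at 6 h, then 20 at 72 h. The mean CPM was below 50% of its 0 h level at 16 of these 20 at 6 h and at 19 at 72 h.

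**Figure D1:**
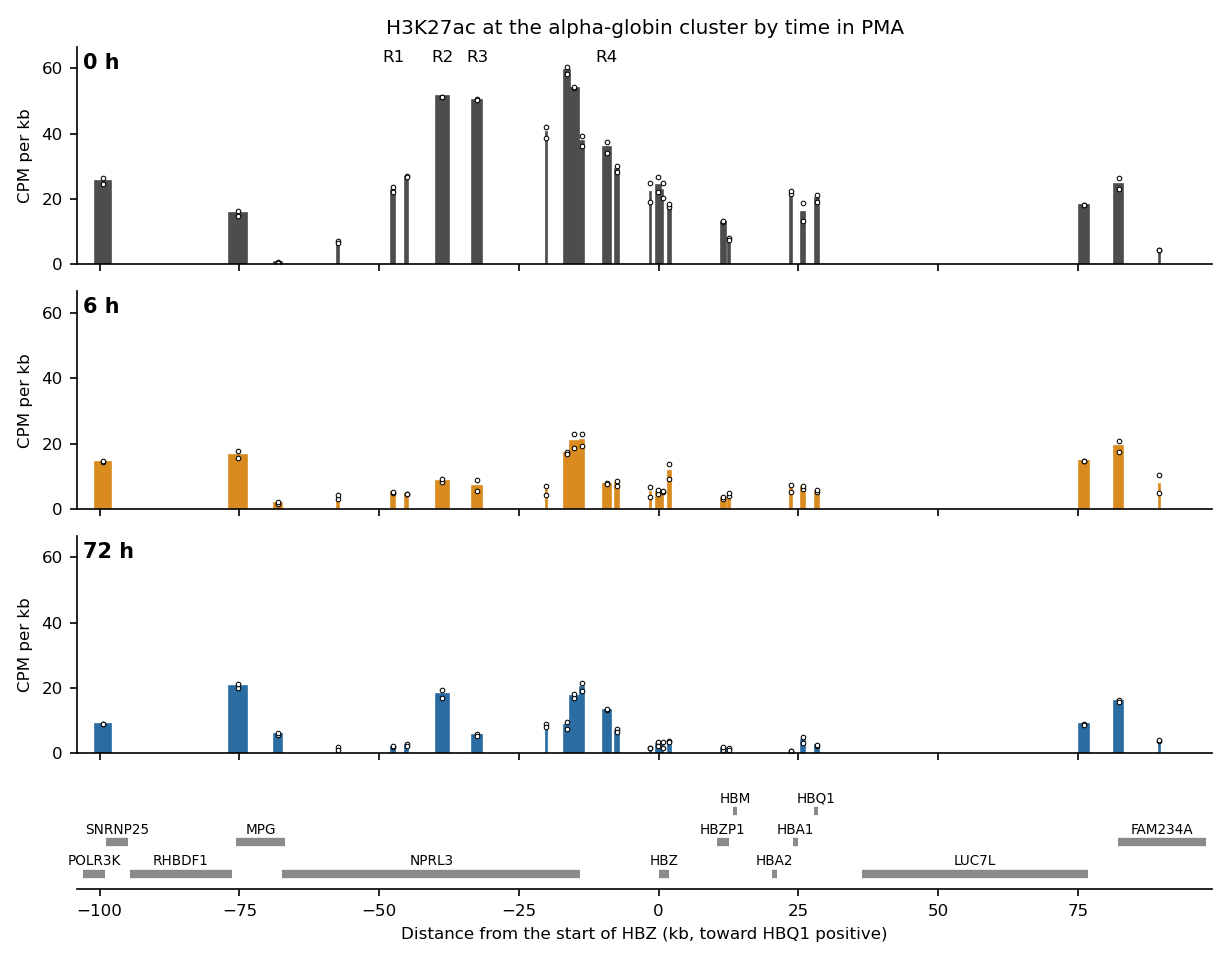
H3K27ac CPM per kb of region (vertical axis) by distance in kb from the start of HBZ (horizontal axis) at 0, 6 and 72 h of PMA, with bars at the mean of 2 libraries, open points for the libraries and gene spans below. The block of signal over NPRL3, which reached 59.4 CPM per kb at 0 h, was at most 21.1 at 6 h.

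The level kept at the later times is given by zone, with no test between zones. CPM summed over the 9 regions of the NPRL3 span came to 24.9% of the 0 h value at 6 h and 25% at 72 h. For the 3 regions between NPRL3 and HBZ the values were 23 and 31.1%, and for the 8 regions from HBZ to HBQ1 they were 32.4 and 14.3%. For the 3 regions beyond NPRL3 on the telomeric side they were 77.6 and 78.6%, and for the 3 regions downstream of HBQ1 80.2 and 57.9%. With scaling to total counts the flanks stood at 97.9 and 92.4% upstream and 101 and 68.1% downstream, and the NPRL3 span at 31.4 and 29.4%. The NPRL3 span was lower than at 0 h under both scalings. The upstream sums join regions that moved in opposite directions, given one by one further on.

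The enhancers themselves did not follow a single course. R2 (HS-40, chr16:112874-115058), the region with the most H3K27ac CPM in the interval at 0 h, read 112 in each 0 h library, 17.8 and 19.8 at 6 h, then 36.9 and 42.1 at 72 h. The 3 times did not overlap, with the lowest values at 6 h and a part of the loss regained at 72 h. R2 was 5.95-fold lower at 6 h than at 0 h (log2 fold change -2.57 ± 0.12 SE, edgeR adjusted p = 1.75e-15) and 2.84-fold lower at 72 h (-1.51 ± 0.11, edgeR adjusted p = 1.27e-12). Between 6 and 72 h it rose 2.09-fold (1.07 ± 0.12, edgeR adjusted p = 1.53e-08).

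R4 (chr16:142731-144046), the enhancer nearest to HBZ, shared this course. It read 49.2 and 44.9 CPM at 0 h, 10.4 and 9.94 at 6 h, then 17.4 and 17.7 at 72 h, again with no overlap between times. It was 4.64-fold lower at 6 h (-2.21 ± 0.12, edgeR adjusted p = 6.5e-14) and rose 1.73-fold from 6 to 72 h (0.79 ± 0.13, edgeR adjusted p = 6.33e-06).

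R1 and R3 were not called higher at 72 than at 6 h. R3 (chr16:119271-121131) read 94 and 93.5 CPM at 0 h, close to R2, then 9.94 and 16.4 at 6 h, then 10.9 and 9.8 at 72 h. The 6 and 72 h libraries overlapped, and both lay far below 0 h. The fall was 6.97-fold at 6 h (-2.80 ± 0.15, edgeR adjusted p = 2.05e-14) and 9.04-fold at 72 h (-3.18 ± 0.14, edgeR adjusted p = 1.83e-16). R3 was called lower at 72 than at 6 h (-0.38 ± 0.16, edgeR adjusted p = 0.0403), a value of 0.06 without the second 6 h library, and the call held in 5 of 8 alternative settings and 1 of 4 fits without a library. R1 (chr16:104772-105495), the enhancer farthest from the globin genes, read 17.1 and 16 CPM at 0 h, 3.5 and 3.79 at 6 h, then 1.48 and 1.53 at 72 h. It fell at each step, 11-fold in all by 72 h (-3.45 ± 0.19, edgeR adjusted p = 1.38e-14), and its times did not overlap. By 72 h R2 thus held 39.5 CPM and R3 10.4 on average, whereas at 0 h they had held 112 and 93.8.

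**Figure D2:**
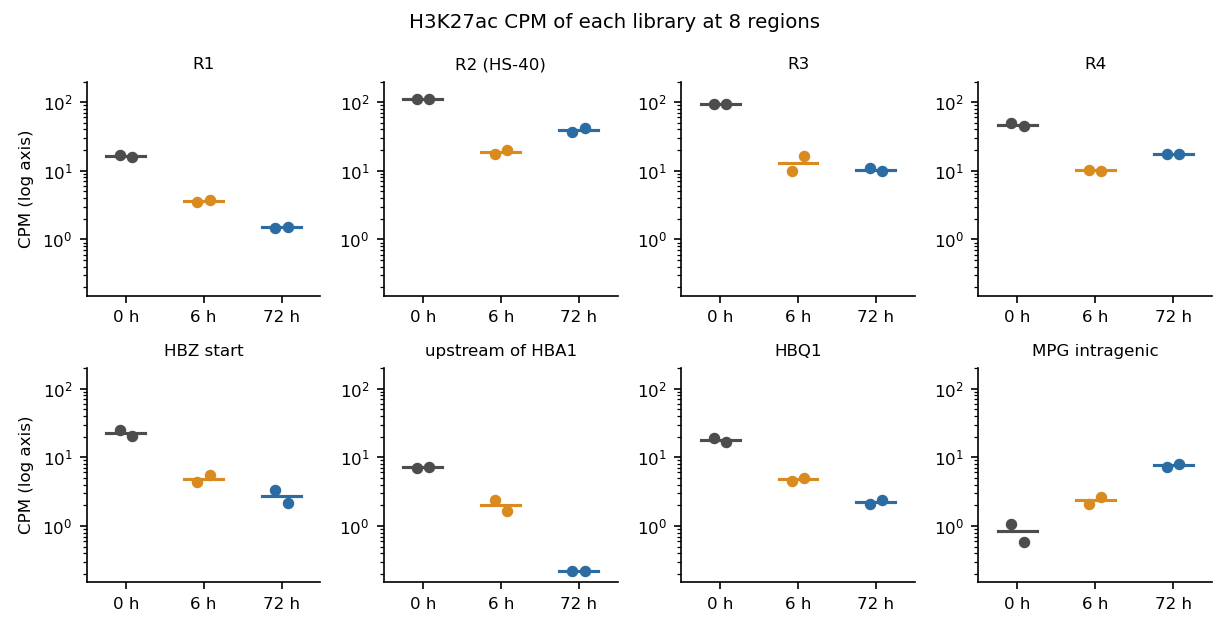
H3K27ac CPM on a log axis at 0, 6 and 72 h of PMA for 8 regions, with a point for each of 2 libraries and a short line at their mean. R2 and R4 were lowest at 6 h, R1, HBQ1, the start of HBZ and the region upstream of HBA1 fell at both steps, and the region inside MPG rose from 0.829 to 7.68 on average.

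In the rest of NPRL3, the densest H3K27ac of the interval at 0 h lay in its first part, next to the start. The regions at chr16:135713-136743 and chr16:136802-138336 held 59.4 and 54.1 CPM per kb on average, against 51.4 for R2 and 50.4 for R3. The first read 60.2 and 62.2 CPM at 0 h, 17.9 and 17.2 at 6 h, then 10 and 7.57 at 72 h, with no overlap (log2 fold change at 72 h -2.80, edgeR adjusted p = 1.67e-16). The second read 82.7 and 83.5 CPM at 0 h, 28.5 and 35.1 at 6 h, then 26.2 and 28 at 72 h, and fell less (-1.62, edgeR adjusted p = 8.24e-13). The region over the NPRL3 start itself (chr16:138577-139251), which contains the printed promoter window, fell least at 72 h of the 9 in the gene's span. It read 24.5 and 26.6 CPM at 0 h, 15.4 and 13 at 6 h, then 12.9 and 14.6 at 72 h, so the later times overlapped. Its log2 fold change was -0.86 ± 0.13 at 6 h (edgeR adjusted p = 3.95e-06) and -0.89 ± 0.13 at 72 h (edgeR adjusted p = 4.58e-07). With TMM factors computed only on regions under a peak throughout all libraries, here called peak-based factors, where the median of all regions at 72 h was 0.82, the 72 h value was -0.26 (edgeR adjusted p = 0.0595). At 6 h this start region had the highest CPM per kb of the interval, 21.1, and at 72 h it had 20.4, where R2 had 18.1.

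Among the globin genes, HBZ had 3 H3K27ac regions over its span and HBQ1 1, while no H3K27ac region overlapped the span of HBM, HBA2 or HBA1. For the nearly identical HBA2 and HBA1 this lack may depend on how reads with several matches were treated, which was not tested. The region at the HBZ start (chr16:152089-153027) read 25.2 and 20.7 CPM at 0 h, 4.34 and 5.46 at 6 h, then 3.33 and 2.19 at 72 h, with no overlap between times. It was 8.29-fold lower at 72 h (-3.05 ± 0.19, edgeR adjusted p = 8.46e-14), after -2.21 ± 0.18 at 6 h (edgeR adjusted p = 1.46e-10). The further fall from 6 to 72 h (-0.84 ± 0.22, edgeR adjusted p = 0.00163) was -0.65 without the second 6 h library (edgeR adjusted p = 0.0525).

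The end of HBZ (chr16:154282-154841) kept more of its signal at 6 h than the start, a difference that was not tested. It read 9.88 and 10.3 CPM at 0 h, 5.18 and 7.73 at 6 h, then 2.17 and 2 at 72 h. The fall was small at 6 h (-0.62 ± 0.19, edgeR adjusted p = 0.00813) and larger by 72 h (-2.27 ± 0.21, edgeR adjusted p = 3.64e-10). The 6 h call was lost without the first 6 h library (-0.38) and with total counts scaling (-0.29, edgeR adjusted p = 0.212), so only the 72 h fall of the HBZ end held in each of those fits.

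The steepest fall of the interval was at chr16:176165-176488, just before the start of HBA1. It read 6.98 and 7.27 CPM at 0 h, 2.38 and 1.67 at 6 h, then 0.217 and 0.219 at 72 h, from 123 and 138 counts at 0 h, 34 in each 6 h library and 6 in each 72 h library. The times did not overlap. At 72 h it was 31.9-fold lower than at 0 h (-4.99 ± 0.35, edgeR adjusted p = 1.74e-12), and 0.372% of all tested H3K27ac regions had a lower log2 fold change in that comparison. HBA1 and HBA2 are nearly identical copies, so reads of this region may come from either gene, and how reads with several matches were treated is not given in the sources used here.

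HBQ1, the last gene of the cluster, had 1 region (chr16:180536-181423) that read 18.9 and 16.9 CPM at 0 h, 4.55 and 5.02 at 6 h, then 2.06 and 2.4 at 72 h. It was 8-fold lower at 72 h (-3.00 ± 0.18, edgeR adjusted p = 6.05e-14), with no overlap. With the regions in the pseudogene HBZP1 and between HBA1 and HBQ1, the 8 regions of this stretch had 72 h log2 fold changes from -4.99 to -1.98. R1, R2, R3, R4 and the regions at the HBZ start, upstream of HBA1 and at HBQ1 passed the threshold at 6 and at 72 h against 0 h in each of 8 alternative settings and without each of 4 libraries.

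**Figure D3:**
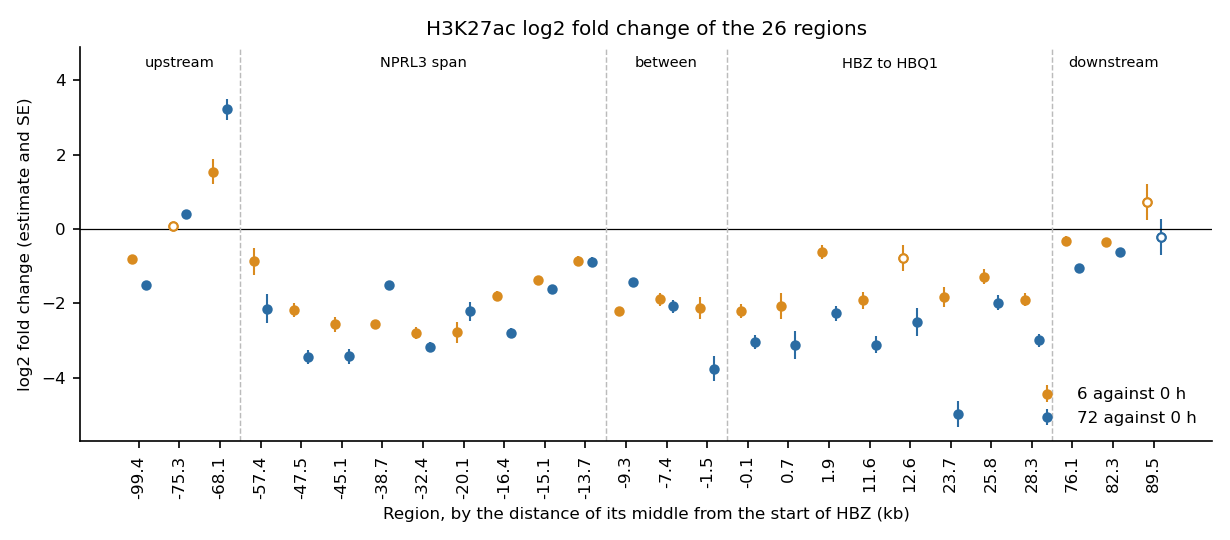
Log2 fold change of H3K27ac (vertical axis, estimate ± SE) against 0 h at 6 h (orange) and 72 h (blue) for the 26 regions in chromosomal order, with open symbols where the adjusted p was not under 0.05 and dashed lines between zones. Between NPRL3 and HBQ1 all 72 h values lie between -4.99 and -0.89, and R2 and R4 are among the regions whose 72 h value is nearer to 0 than the 6 h value.

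From 6 to 72 h, 4 of the 26 H3K27ac regions were called higher and 17 lower, where 63.8% of all regions were called, 33.1% higher and 30.8% lower. The 4 were R2, R4, the region inside MPG and the region over the start sides of RHBDF1 and MPG. All 8 regions from HBZ to HBQ1 were among those called lower, with log2 fold changes from -3.16 to -0.70. The call inside HBZ (chr16:153233-153443, -1.04, edgeR adjusted p = 0.0404) was lost with peak-based factors (-0.76, edgeR adjusted p = 0.137), with DESeq2 (-0.93, DESeq2 adjusted p = 0.146), with only those times in the fit (-1.05, edgeR adjusted p = 0.0717), without either 6 h library and without the first 72 h library (-0.56, edgeR adjusted p = 0.321).

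Outside the cluster, the clearest gain was inside MPG, which encodes a glycosylase that removes alkylated bases from DNA. The region chr16:83888-85207 read 1.08 and 0.58 CPM at 0 h, 2.1 and 2.66 at 6 h, then 7.31 and 8.05 at 72 h. The times did not overlap, and the 0 h values rest on 19 and 11 counts. The rise was 9.29-fold by 72 h (3.22 ± 0.29, edgeR adjusted p = 1.53e-10). RHBDF1, which encodes an inactive rhomboid protein, and MPG are transcribed away from each other. The region over the start sides of both gene spans (chr16:75788-78954) read 47 and 52 CPM at 0 h and 63.3 and 66.8 at 72 h (0.40, edgeR adjusted p = 0.00142). This call was lost without the first 0 h library (0.32). On the telomeric side, the region at POLR3K and SNRNP25, which encode a subunit of RNA polymerase III and a protein of the minor spliceosome, fell from 73.9 and 79.4 CPM to 43 and 44.4 and then 27.3 and 26.7 (-1.51 at 72 h, edgeR adjusted p = 9.43e-13). Downstream, the LUC7L region (chr16:227816-229705), named for a splicing factor, read 34.4 and 34.5 CPM at 0 h, 27.8 and 27.9 at 6 h, then 17.2 and 16.4 at 72 h (-1.04 at 72 h, edgeR adjusted p = 3.9e-09). Its 6 h value was -0.31 under TMM, 0.02 under total counts scaling and 0.05 with peak-based factors. The FAM234A region (chr16:234052-235810) read 40.5 and 46.3 CPM at 0 h and 28.5 and 27.6 at 72 h, a log2 fold change of -0.63 that was 0.01 with peak-based factors.

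Jun, the AP-1 subunit whose activity PMA is known to raise, also fell at most of its regions in the interval. At 72 h against 0 h, 14 of 24 tested regions were called lower and 1 higher, where 53.7% of all Jun regions were called, 25.7% lower and 28% higher. At 6 h, 8 were called lower and 1 higher, where 25.3% of all were called, 12.2% lower and 13.1% higher. The median of the tested regions was -0.44 at 6 h and -0.97 at 72 h, and 2 of the 26 were too low to be tested. Jun depended on scaling more than H3K27ac did: with total counts the median of all regions at 72 h was 0.73, and 3 of the interval's regions were called higher and 9 lower. Peak-based factors, under which the median was 0.94, gave the same counts. With total counts outside the mitochondrial chromosome the median was 0.43, and 2 regions were called higher and 13 lower.

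At R2 the Jun region (chr16:113129-114314), the strongest of the interval, read 37.6 and 42.6 CPM at 0 h, 19.3 and 26.3 at 6 h, then 22.3 and 22.9 at 72 h. Both later times lay below 0 h and overlapped each other. The log2 fold change was -0.81 ± 0.20 at 6 h (edgeR adjusted p = 0.00535), or -0.71 without the second 0 h library (edgeR adjusted p = 0.0683). At 72 h it was -0.83 ± 0.19 (edgeR adjusted p = 0.000883) under TMM. With total counts outside the mitochondrial chromosome it was -0.56 (edgeR adjusted p = 0.0168). It was -0.26 with total counts (edgeR adjusted p = 0.271) and -0.05 with the peak-based TMM factors (edgeR adjusted p = 0.794). Relative to the median of all regions it was -0.99 under each of the last 2 scalings. Unlike H3K27ac at R2, Jun was not called higher at 72 than at 6 h (-0.02, edgeR adjusted p = 0.956), although the peak-based factors gave 0.55 (edgeR adjusted p = 0.0178).

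Jun at R3 (chr16:119850-120382) read 9.04 and 9.46 CPM at 0 h, 2.04 and 3.83 at 6 h, then 2.28 and 2.25 at 72 h. It was called lower at 6 h (-1.62 ± 0.35, edgeR adjusted p = 0.00147) and at 72 h (-2.02 ± 0.29, edgeR adjusted p = 5.97e-06), with all later libraries below both 0 h libraries. At the HBZ start (chr16:152383-152716) it read 4.08 and 3.3 CPM, then 0.681 and 0.912, then 0.428 and 0.637 (-2.76 ± 0.51 at 72 h, edgeR adjusted p = 0.000114). The HBZ call at 6 h (-2.18 ± 0.62, edgeR adjusted p = 0.0126) was lost without the first 0 h library (-2.02, edgeR adjusted p = 0.097).

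R4 differed. Its Jun region (chr16:143538-143968) read 1.31 and 1.29 CPM at 0 h, 0.681 and 1.64 at 6 h, then 2.66 and 2.72 at 72 h. The 72 h libraries were above all others, but the difference missed the threshold under TMM (1.04 ± 0.47, edgeR adjusted p = 0.0639) and passed it with total counts (1.60, edgeR adjusted p = 0.00503) and with peak-based factors (1.81, edgeR adjusted p = 0.00257). A Jun region beside it (chr16:144724-145492) fell instead, from 12.8 and 11.3 CPM to 3.63 and 2.55 and then 3.85 and 2.93 (-1.83 ± 0.25 at 72 h, edgeR adjusted p = 4.61e-06).

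The 1 Jun region called higher lay inside MPG (chr16:84570-85050), within the H3K27ac region that rose there. It held 0 and 6 counts at 0 h, 17 and 14 at 6 h, then 70 and 69 at 72 h, or 0 and 0.86, 3.86 and 2.55, and 3.33 and 2.93 CPM. All later libraries were above both at 0 h (2.84 ± 0.71 at 6 h, edgeR adjusted p = 0.00538, and 2.82 ± 0.63 at 72 h, edgeR adjusted p = 0.000819). With so few counts at 0 h the size is uncertain: without 1 library at a time the 72 h value ranged from 1.85 to 8.27, and without the first 0 h library the 6 h value was 1.86 (edgeR adjusted p = 0.053). At the RHBDF1 start of RefSeq's promoter table (chr16:72501-72963, which holds the printed window), Jun fell from 11.2 and 13.5 CPM to 7.26 and 5.66 and then 4.95 and 3.35 (-1.58 ± 0.25 at 72 h, edgeR adjusted p = 2.15e-05). At the NPRL3 start the fall at 72 h (-1.02, edgeR adjusted p = 0.0111) was lost with total counts (-0.46), with peak-based factors (-0.25), without the first 0 h library (-0.74) and without the second 72 h library (-0.93).

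**Figure D4:**
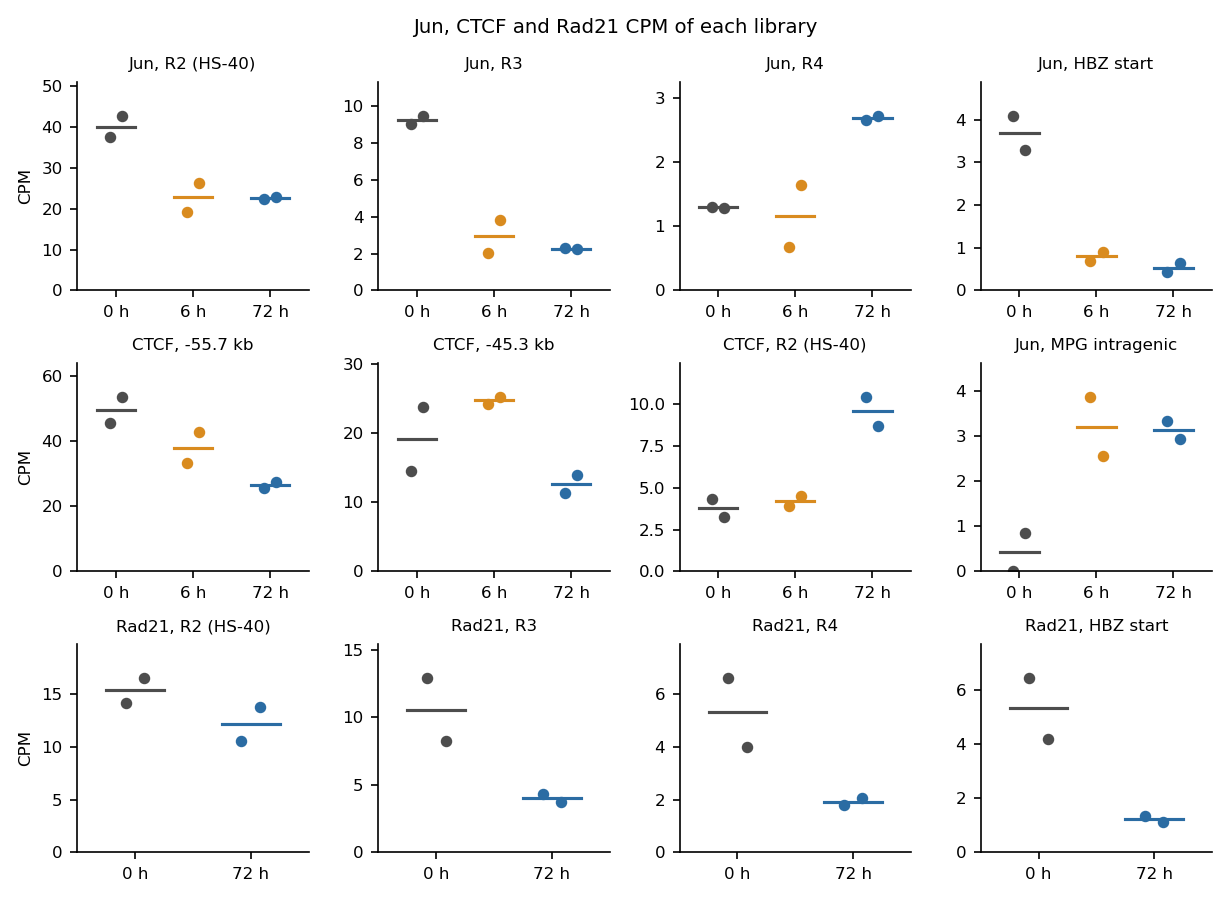
CPM of Jun, CTCF and Rad21 at 12 regions (vertical axes from 0) by hours of PMA, with a point for each of 2 libraries and a short line at their mean; Rad21 was not profiled at 6 h. Jun at R2 fell from 40.1 to 22.6 on average by 72 h, CTCF at R2 was 3.79 at 0 h and 9.54 at 72 h, and Rad21 at the HBZ start fell from 5.33 to 1.24.

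CTCF changed little by test. None of the 13 tested CTCF regions passed at 6 h, where 2.65% of all CTCF regions were called, 2.33% higher and 0.325% lower, and 1 had an unadjusted p under 0.05 by edgeR; DESeq2 also called 0. At 72 h against 0 h 1 region was called lower, where 6.79% of all were called, 2.72% lower and 4.07% higher. At 72 against 6 h the count was 0, where 2.18% of all were called, 0.449% higher and 1.73% lower, with 4 at an unadjusted p under 0.05 by edgeR and 0 calls by DESeq2. The strongest CTCF region (chr16:96602-97314, -55.7 kb from the HBZ start, inside NPRL3) was the 1 called lower. It read 45.6 and 53.4 CPM at 0 h, 33.3 and 42.7 at 6 h, then 25.6 and 27.5 at 72 h, with both 72 h libraries below the rest. The log2 fold change at 72 h was -0.89 ± 0.25 (edgeR adjusted p = 0.044). The call was lost under 5 alternative settings and without each of the 4 libraries in turn, with values from -0.90 to -0.55 over 8 settings and from -1.01 to -0.75 over the 4 libraries.

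The second NPRL3 site of CTCF (chr16:107001-107660, at -45.3 kb) read 14.5 and 23.8 CPM at 0 h, 24.3 and 25.2 at 6 h, then 11.3 and 13.9 at 72 h. The 72 h libraries were the lowest, with no call at 72 against 0 h (-0.57, edgeR adjusted p = 0.206). At R2 (chr16:113417-113798) CTCF read 4.33 and 3.25 CPM at 0 h, 3.88 and 4.48 at 6 h, then 10.4 and 8.71 at 72 h. The 72 h libraries stood above the other 4, and deposited CTCF peaks overlapped the region in both 72 h libraries and in none of the others. The difference missed the threshold with all 3 times in the fit (1.30 ± 0.43, edgeR adjusted p = 0.0706). It passed in 3 of 7 alternative settings. These were only 0 and 72 h in the fit (1.29, edgeR adjusted p = 0.0288), total counts (1.52, edgeR adjusted p = 0.0214) and peak-based factors (1.64, edgeR adjusted p = 0.041). With total counts outside the mitochondrial chromosome it missed (1.35, edgeR adjusted p = 0.0566). Mitochondrial regions took 17.8 and 22.1% of CTCF counts at 0 h and 9.55 and 9.63% at 72 h. Without 1 library at a time the value ranged from 1.15 to 1.54 and was not called. With total counts the R2 region was the 1 CTCF region called, in place of the site at -55.7 kb, so the direction of the single call turned with the scaling. The pair of CTCF regions at HBQ1 did not pass the test: chr16:180571-181797 read 34.2 and 21.3 CPM at 0 h and 29.7 and 24.2 at 72 h (-0.06), and chr16:180002-180474 read 13.8 and 11.9 and then 12.7 and 12.8 (-0.02).

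Rad21 fell at the enhancer R3, at a part of R4, at the HBZ start and at 1 more NPRL3 region by the test, but each call depended on single libraries. At 72 h against 0 h, 4 of 19 tested Rad21 regions were called lower and 0 higher, where 23.3% of all Rad21 regions were called, 7.91% lower and 15.4% higher. Their median was -0.27 and that of all regions -0.05. R3 (chr16:119882-120424) read 12.9 and 8.23 CPM at 0 h and 4.32 and 3.77 at 72 h (-1.39 ± 0.35, edgeR adjusted p = 0.00567). The HBZ start (chr16:152424-152821) read 6.45 and 4.22 CPM and then 1.34 and 1.13 (-2.10 ± 0.52, edgeR adjusted p = 0.00541). R4 (chr16:142994-143212) read 6.6 and 4.01 CPM and then 1.79 and 2.07 (-1.48 ± 0.47, edgeR adjusted p = 0.0271). The NPRL3 region chr16:135866-136277 read 8.49 and 4.43 CPM and then 2.08 and 3.39 (-1.28 ± 0.44, edgeR adjusted p = 0.0367). At all 4 the 2 times did not overlap, and the first 0 h library was the higher of its pair. Without that library the values were -0.81 at R3 (edgeR adjusted p = 0.214), -1.54 at the HBZ start (edgeR adjusted p = 0.151), -0.85 at R4 (edgeR adjusted p = 0.382) and -0.51 at the NPRL3 region (edgeR adjusted p = 0.556). Without the first 72 h library R3 had -1.45 (edgeR adjusted p = 0.057), and without the second -1.23 (edgeR adjusted p = 0.0964). DESeq2 called none of the 4. Another Rad21 region inside R4 (chr16:143698-143912) went the other way, from 2.2 and 1.9 CPM at 0 h to 4.47 and 3.39 at 72 h. The times did not overlap there, but the region was not called (0.93 ± 0.51, edgeR adjusted p = 0.18).

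Rad21 at R2 (chr16:113185-114003), the highest Rad21 region of the interval in CPM, did not pass: it read 14.2 and 16.5 CPM at 0 h and 10.6 and 13.8 at 72 h (-0.33, edgeR adjusted p = 0.372). At the CTCF site at -45.3 kb Rad21 read 11.5 and 13.9 CPM and then 8.93 and 8.11 (-0.56, edgeR adjusted p = 0.147), so the times did not overlap but the test was not passed. No Rad21 region overlapped the CTCF site at -55.7 kb. The 1 region of any antibody over the span of HBA1 was a Rad21 region (chr16:176560-176774), which read 2.67 and 7.39 CPM at 0 h and 2.53 and 1.7 at 72 h (-1.19, edgeR adjusted p = 0.0999) and carries the same doubt between HBA1 and HBA2 as above. Without 1 library at a time its value ranged from -1.57, without the first 0 h library, to -0.3. It passed the threshold in 0 of 6 alternative settings.

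The deposited peaks place the factors close together at R2. Jun peaks covered R2 in all 6 Jun libraries, with summits between chr16:113514 and 113584, and Rad21 peaks in all 4 Rad21 libraries, with summits between 113516 and 113638. The CTCF summits of the 72 h libraries lay between 113562 and 113607, so all 12 summits fell within 124 bp. At 0 h H3K27ac was called at R2 as a pair of peaks in each library. The gap between them (113520 to 113805 in the first library and 113551 to 113782 in the second) overlapped the stretch of the summits in part. That stretch, 113514 to 113638, began before the gap of either library, so some summits lay outside it. At 72 h a single H3K27ac peak spanned the place of both gaps in each library. The authors' fold enrichment of the Jun peak at R2 was 11.4 and 11.8 at 0 h, 5.59 and 11.6 at 6 h, then 11.7 and 12.5 at 72 h, and is given here as the peak's own value only.

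Peaks in both libraries of a time overlapped 17 of the 26 H3K27ac regions at 0 h (65.4%, against 29.2% of all regions), 7 at 6 h (26.9 against 24.1%), then 10 at 72 h (38.5 against 48%). For Jun the counts were 7, 5 and 12 of 26 (26.9, 19.2 and 46.2%), where the shares of all Jun regions were 18, 13.2 and 56.2%. The Jun peak lists held 31637 and 35072 peaks at 0 h and 92329 and 99102 at 72 h, and these counts were not read as a change in Jun. For CTCF the counts were 6, 3 and 5 of 14 (42.9, 21.4 and 35.7%, against 34.6, 23.1 and 36.1% of all), and for Rad21 4 of 20 at each of its times (20%, against 18.7 and 15.1% of all). Of the 26 Jun regions 69.2% overlapped an H3K27ac region and of the 20 Rad21 regions 85%, while 57.7% of the H3K27ac regions overlapped a Jun region and 50% a Rad21 region. The same shares over all regions were not computed, so these overlaps were not read as a trait of the interval. The authors' deposited table sorts 15 of the 26 H3K27ac regions under the label upLate and 1 under upEarly. Its own log2 fold change at 72 h is negative for 14 of the 15 upLate regions and for the upEarly region, so the label was not read as a direction. In the same deposited table R2 has -2.64 at 6 h and -1.45 at 72 h, and R3 -2.88 and -3.11.

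Most genes that encode known regulators of the cluster were called lower in H3K27ac under TMM, the only scaling used for this list and the next. With peak-based factors the median of all regions was 0.55 at 6 h and 0.82 at 72 h. Calls of small falls may therefore depend on the scaling, which was not tested for these genes. Of 12 listed regulators, 3 were called higher and 9 lower at 6 h, and 3 higher and 7 lower at 72 h. Of all H3K27ac regions, 32.3% were called higher and 26.3% lower at 6 h, and 43.4 and 38.1% at 72 h. Each gene was read at 1 region, the one with the highest mean CPM over the gene or the 1000 bp on either side. The median log2 fold changes of the regulators were -0.73 and -0.72, where those of all regions were 0.20 and 0.18. KLF1, an erythroid activator of globin genes, fell from a mean of 68.8 CPM to 12.6 and then 2.18 (log2 fold change -2.44 and -4.98). GATA1, the master erythroid factor, was -1.29 at 6 h and then called higher from 6 to 72 h (1.08), ending at -0.21 against 0 h (edgeR adjusted p = 0.0877). NFE2, the subunit of NF-E2 with a site in R2, took the same course, with -2.04 at 6 h and -0.95 at 72 h. LDB1, which joins enhancer and promoter complexes, fell further by 72 h (-1.38 and -2.33), and TAL1, its partner, was -0.82 and -0.71. MAFK, the small Maf partner of NF-E2, rose (1.61 and 1.87), and BACH1, which competes for NF-E2 sites, fell (-1.25 and -3.27). BCL11A, a repressor of fetal globin genes, held 0 counts at 0 h and 0.378 and 1.73 CPM on average later.

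Of 5 listed erythroid partners, counting the fetal globin genes HBG1 and HBG2 as 1 and reading them at HBG2, 4 had an H3K27ac region. All 4 were called lower at 6 h and at 72 h, where 26.3 and 38.1% of all H3K27ac regions were called lower. AHSP, the chaperone of free alpha chains, fell from 7.59 CPM to 1.49 and 0.0907 (-2.35 and -6.30). ALAS2, the first enzyme of erythroid heme synthesis, fell from 24 to 2.32 and stood at 6.83 at 72 h (-3.32 and -1.81, and 1.51 from 6 to 72 h). HBG2, a near copy of HBG1 that may share its reads, had -0.80 and -1.19. The region read for HBG1 (chr11:5246269-5247674) overlapped no gene and only reached into the 1000 bp beside HBG1. It had -0.11 at 6 h (edgeR adjusted p = 0.402) and -0.38 at 72 h.

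**Figure D5:**
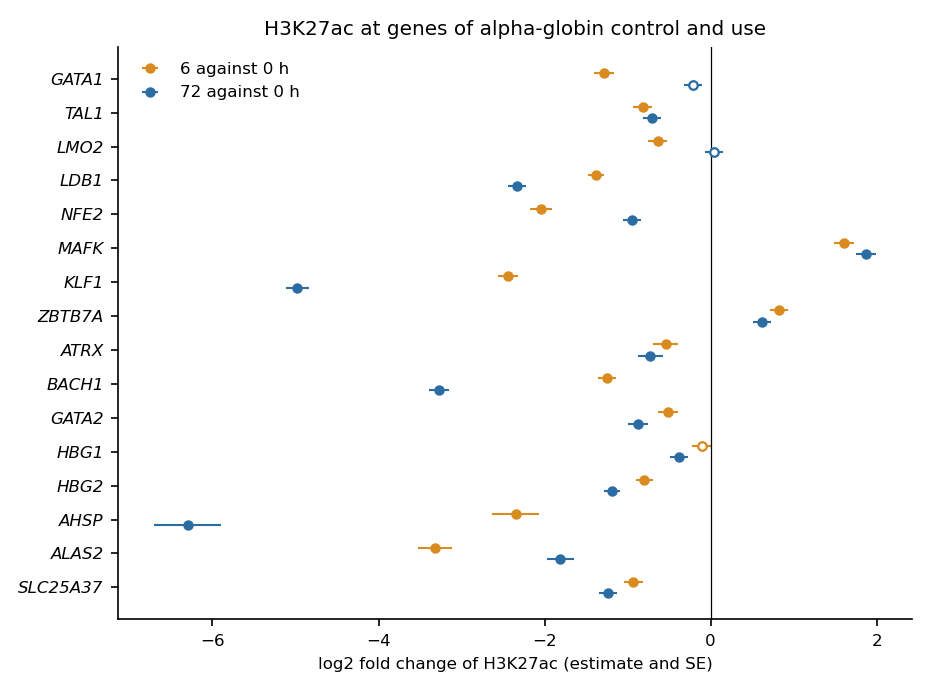
Log2 fold change of H3K27ac (estimate ± SE) against 0 h at 6 and 72 h of PMA for 16 genes of the regulator and erythroid partner lists, each at 1 region, with open symbols where the adjusted p was not under 0.05. KLF1 and AHSP reach -4.98 and -6.30 at 72 h, while GATA1, NFE2 and ALAS2 lie nearer to 0 at 72 h than at 6 h. BCL11A, with 0 counts at 0 h and called higher at 6 h (5.93) and at 72 h (8.19), is not drawn.

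The regions of other chromosomes most like R2 in H3K27ac over the 6 libraries, by Pearson's r of log2 CPM among 27009 candidate regions in single protein-coding genes, lay in HPSE2 (r = 0.9996), A2ML1 (0.9995), RHOH (0.9994), AHI1 (0.999) and CDH23 (0.999). The 6 points are 3 times with 2 libraries each and share depth and scaling, and 1809 candidates had r over 0.9.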

How the data were processed

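The data were region tables and peak lists of K562 cells at 3 times of PMA exposure. Per the file headers, each deposited table holds raw counts per region and library beside the authors' log2 fold changes against 0 h and adjusted p-values. In the interval's H3K27ac, Jun and CTCF regions the deposited adjusted p-values for 6 h and 72 h were identical, so they were not read as separate tests of each time. The deposited peak lists hold a fold enrichment, a −log10 p, a −log10 q and a summit position per peak, called by the authors per library. The submitters' processing notes name Trim Galore 0.4.3, BWA 0.7.17, SAMtools 1.9, deepTools 3.0.1, MACS2 and bedtools 2.26, and the builds hg19 and hg38; contig names and chromosome ends place the tables on GRCh38. How regions were merged and counted is not given in the sources used here.

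Each whole table was fitted with edgeR 4.0.16 in R 4.3.3: filterByExpr (minimum count 10), TMM scaling, quasi-likelihood test, all times of an antibody in 1 fit, Benjamini-Hochberg adjusted p under 0.05 over all regions. SE is the log2 fold change over the square root of F. The procedure was tested on simulated data. Peaks were matched to regions by 1 bp of overlap or more. Alternatives were other scalings, count filters, DESeq2 1.42.0, a replicate block, fits of only 2 times and leaving out each library. Regions named are those over the globin genes, the 6 with the most CPM in NPRL3, the 2 with the most in each other zone, and the 2 largest calls in each direction. The interval, its regions, the gene lists and the tests were chosen with earlier results of these data known. Count totals limit precision; p-values cover the spread of 2 libraries only. 1 gene of the marker and partner lists is not reported here.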

Additional observations from a re-analysis of the deposited data

How the results depend on the processing

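Across 1708 alternative values of the named regions, 1594 (93.3%) stayed on their side of the threshold, 88 lost the call and 26 gained one. The sign changed in 93 values, 87 of them at comparisons that were not called and 6 at called ones. Taking regions that overlap the interval could change nothing, since none crosses its edge, and is not counted. The 6 are these. LUC7L H3K27ac at 6 h became 0.02 with total counts, 0.03 with total counts outside the mitochondrial chromosome and 0.05 with peak-based TMM factors. FAM234A H3K27ac became 0.01 at 72 h against 0 h and 0.01 against 6 h with the last of these, and R3 at 72 against 6 h ranged from -0.67 to 0.06 without 1 library, the second value without the second 6 h library. The numbers of regions called moved as follows. With a mean count of at least 50, Jun had 5 calls at 6 h and 7 at 72 h, CTCF 0 at 72 h and Rad21 0. DESeq2 made 0 calls for CTCF at 72 h and 0 for Rad21. For CTCF at 72 h against 0 h, total counts outside the mitochondrial chromosome gave 0 and a fit of only those times 3, and at 72 against 6 h total counts gave 2, all higher. The cause was not tested.

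Without 1 library at a time, H3K27ac calls ranged from 20 to 23 at 6 h, 24 to 25 at 72 h and 16 to 20 at 72 against 6 h. Jun calls ranged from 6 to 9, 11 to 14 and 0 to 3, CTCF calls from 0 to 0, 0 to 0 and 0 to 1, and Rad21 calls from 1 to 4. A group left with 1 library was assumed to vary like the others. For Jun at 72 against 6 h, TMM gave 0 higher and 3 lower, total counts 1 and 2, and peak-based TMM factors 2 and 2. Of the peak counts, a −log10 q of at least 10 left 3 Jun regions at 0 h, 0 at 6 h, 4 at 72 h, 2 CTCF regions at 0 h, 3 at 72 h, 1 Rad21 region at 0 h and 0 at 72 h.

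Replicate numbers did not pair the libraries: the correlation of deviations from the group means ran from -0.008 to 0.124. The replicate block gave 1 CTCF call at 72 against 6 h, lower, in place of 0, and moved no other number of calls by over 1.5 times; for H3K27ac it gave 22, 25 and 22 calls.

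The median count per region of a library was 39 to 94 for H3K27ac, 13 to 75 for Jun, 14 to 46 for CTCF and 15 to 21 for Rad21. A difference that missed the threshold is not shown to be absent.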
